A study of Danio rerio with 12 samples.

Results

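The response of miR-34a mutant zebrafish embryos to the DNA-damaging drug camptothecin (CPT) was read from 6 of the 12 libraries of the study, 3 from mutants given CPT and 3 from mutants given DMSO, which were picked by the genotype and treatment in their labels and column names. All genes with enough counts were compared, 11866 of the 15265 genes in the count table. The mutant CPT embryos (miR-34a-/-) were exposed to 1 µM CPT for 4 h from 24 hours post fertilisation (hpf) and collected at 28 hpf, and the mutant DMSO embryos had the same genotype, timing and stage with solvent in place of the drug. Wild-type CPT and wild-type DMSO embryos, 3 libraries each, had the same exposure. They entered the same model, which shares 1 gene filter and 1 estimate of spread, and served to check the mutated gene and to test whether a response of the mutants differed. Each library was made from polyadenylated RNA of 30 to 50 whole embryos pooled together, whose RNA integrity number was 8 or more, and was read on an Ion Proton instrument. The column names describe the mutant as a deletion of mir34a. Its strain background, the number of founder lines and the clutches behind each pool are not stated in the labels, so p-values reflect how much these pools vary, and that variation may be technical in part. The control embryos were labelled with 0.005% DMSO, and no DMSO content was labelled for CPT embryos. Diluting the 2 mM stock to 1 µM would bring 0.05% DMSO, so drug and solvent content cannot be told apart on the labels alone.

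Camptothecin holds topoisomerase I on DNA in the middle of its cutting cycle, and the trapped enzyme stops both replication forks and RNA polymerase, which leaves DNA breaks. In vertebrate cells such breaks activate the ATM and ATR kinases, and these stabilise the transcription factor p53, whose targets arrest the cell cycle, repair DNA or start apoptosis through the mitochondria. The microRNA miR-34a is itself a transcriptional target of p53 and is known, mostly from mammals, to repress genes of proliferation and survival. Gene roles are given below as known for vertebrates, mostly from mammals, and not as results.

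Library totals ran from 13.5 to 21.7 M counts in mutant CPT and from 15.03 to 22.4 M in mutant DMSO. The row of the mutated gene, listed as mir34 (a synonym of mir34a), had 0 counts in all 6 mutant libraries. It had 9, 9 and 32 counts in wild-type CPT and 0, 1 and 0 in wild-type DMSO. The mutant CPT libraries thus matched their labels as far as so few reads can show. The mutant DMSO libraries could not be checked in this way, because wild-type DMSO held almost no reads of this row either. A count of 0 over a group allows up to 3 counts, or 0.0594 CPM in mutant CPT and 0.0537 CPM in mutant DMSO. Within a mutant group, Spearman's correlation between replicates over all genes was 0.991 to 0.994. Every pair of replicates still differed by more than sampling noise, with a chi-square per degree of freedom of 7.55 to 24.0. Among the 6 mutant libraries, the first principal component held 83.1% of the variance and separated CPT from DMSO, and the second held 5.64%.

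Most measured genes of mutant embryos changed in relative level within 4 h of CPT. Levels were scaled between libraries, which sets the centre of the log2 fold changes, so a change in total RNA would not be seen. Of 11866 tested genes, 3383 rose (28.5%) and 3763 fell (31.7%) at an adjusted p under 0.05 in edgeR's quasi-likelihood test with Benjamini-Hochberg adjustment, which makes 7146 genes called (60.2%). Unadjusted p-values under 0.05 were reached by 7605 genes. The median log2 fold change of all tested genes was -0.0064, with quartiles of -0.64 and 0.47. Called changes under 2-fold numbered 2477 rises and 1808 falls. Falls outnumbered rises among large changes. A change of at least 2-fold was called for 906 higher genes (7.64%) and 1955 lower genes (16.5%), of at least 4-fold for 207 and 676, and of at least 8-fold for 75 and 185. At 16-fold or more the counts were 31 higher and 34 lower, and at 32-fold or more 12 higher and 8 lower. Several folds of this size rest on few reads in the lower group, such as celf4 with a mean of 0.158 CPM in mutant CPT. These counts can also move with 1 library. Without CPT library 1 the log2 fold change of neo1a went from -4.35 to -5.29. Without DMSO library 1 that of guca1e went from 4.47 to 5.54. In the third of genes with the lowest mean CPM, 19.5% rose and 31.2% fell, while in the third with the highest mean CPM 35.0% rose and 30.4% fell. The CPT and DMSO libraries of the mutants did not overlap for 7848 genes (66.1%). Whole embryos were sampled, so less RNA per cell and fewer cells of a type cannot be told apart for any gene.

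**Figure D1:**
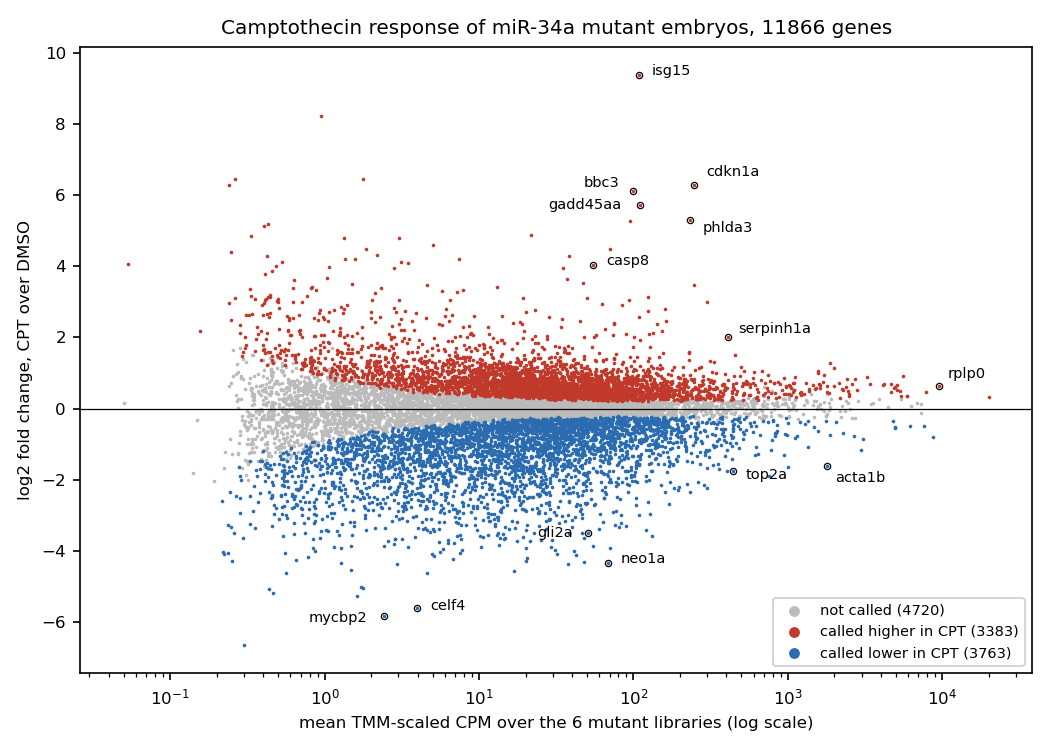
Each point is 1 of 11866 tested genes, with its mean CPM over the 6 mutant libraries on a log axis and its log2 fold change of CPT over DMSO on the vertical axis; red genes were called higher (3383), blue genes lower (3763) and grey genes were not called. Damage genes such as cdkn1a, bbc3 and phlda3 stand far above 0, and the neuronal genes celf4 and neo1a lie far below it.

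The 3 CPT libraries did not respond to exactly the same extent. Over the 906 genes that rose by 2-fold or more, the median log2 ratio to the mean of the DMSO libraries was 1.13 in CPT library 1, 1.195 in CPT library 2 and 1.2002 in CPT library 3. Over the 1955 genes that fell by 2-fold or more, it was -1.35 in CPT library 1, -1.50 in CPT library 2 and -1.46 in CPT library 3. CPT library 1 was the highest of the 3 for 132 of the 185 genes that fell by 8-fold or more, and the lowest for 24. This library also had the most reads of the 3, and the part of depth in its smaller falls was not tested. The relative spread between libraries was larger in the group with the lower level. Among genes with at least 5 CPM, those that rose by 2-fold or more had a median coefficient of variation of 8.25% in CPT and 13.3% in DMSO. Those that fell by 2-fold or more had 13.7% in CPT and 10.8% in DMSO, and genes not called had 7.94% in CPT and 9.87% in DMSO. Counting error is relatively larger at lower counts, and its part was not tested.

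The p53 targets rose, with cdkn1a, bbc3, gadd45aa and phlda3 furthest. Of 41 tested targets in a list of 46 found in the table, 29 rose and 4 fell. By 2-fold or more, 20 rose and 2 fell, against 7.64% and 16.5% of all tested genes. The median log2 fold change was 0.89, against -0.0064 over all tested genes, where 28.5% rose and 31.7% fell. This list and those below were chosen with earlier results of these data known. Their shares and medians therefore describe these libraries and are not independent evidence. The cyclin-dependent kinase inhibitor cdkn1a (p21), which stops the cycle before S phase, had 465, 494 and 492 CPM in the mutant CPT libraries, against 5.03, 6.30 and 7.05 CPM in the mutant DMSO libraries. Every CPT library was above every DMSO library, with a log2 fold change of 6.29 ± 0.16 (SE) or 78.4-fold (edgeR adjusted p = 3.59e-17). The Akt inhibitor phlda3 had 414, 478 and 470.1 CPM in the mutant CPT libraries, against 9.75, 12.7 and 11.6 CPM in the mutant DMSO libraries, 39.8-fold higher (edgeR adjusted p = 2.22e-17). The stress sensor gadd45aa, which brakes the cycle at G2, had 194, 223 and 229 CPM in mutant CPT, against 4.29, 3.72 and 4.26 CPM in mutant DMSO. These groups were far apart, and gadd45aa rose by 5.72 ± 0.15 on the log2 scale. The gene zgc:136826, a ribosomal protein S27-like gene, rose by 3.01 ± 0.12.

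The ubiquitin ligase gene mdm2, which sends p53 to degradation, had 106, 134 and 136 CPM in the mutant CPT libraries, against 19.4, 22.7 and 29.0 CPM in the mutant DMSO libraries. CPT library 1 was the lowest of the treated ones and still far above the controls. The gene rose by 2.402 ± 0.16 (edgeR adjusted p = 9.29e-10), while its partner mdm4 did not pass the test at -0.05 (edgeR adjusted p = 0.74). The antioxidant and mTORC1-restraining sestrin sesn1 had 257, 242 and 256 CPM in mutant CPT, against 61.7, 51.3 and 53.9 CPM in mutant DMSO, a rise of 2.18 ± 0.10 with no overlap of libraries. The cyclin G gene ccng1 was barely detected, with 1.21, 0.965 and 0.661 CPM in mutant CPT, against 0.490, 0.0876 and 0.152 CPM in mutant DMSO. It rose by 2.08 ± 0.56, and by 2.97 without DMSO library 1, which held most of its control reads. Of the other targets, the repair gene xpc was at 0.01 and the phosphatase regulator ppp1r15a at 0.43, and neither passed the test (edgeR adjusted p = 0.942 and 0.068). As a sum, the p53 targets took up 0.552% ± 0.0180 of the scaled counts in mutant CPT and 0.166% ± 0.00510 in mutant DMSO (SD, n = 3 each).

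Within the BCL-2 family, which sets the permeability of the mitochondrial membrane, 9 of 21 tested members rose and 1 fell. These shares were 42.9% and 4.76%, against 28.5% and 31.7% of all tested genes. The count of rises ran from 5 to 11 over the alternative settings, and at 5 of 21 the share was below that of all tested genes. The median log2 fold change was 0.42. The BH3-only gene bbc3 (Puma) had 187, 192 and 212 CPM in the mutant CPT libraries, against 3.07, 2.76 and 2.74 CPM in the mutant DMSO libraries. Treated and control libraries were far apart and each group was tight, with a fold change of 69.1 (edgeR adjusted p = 6.05e-18), the smallest p of the whole table. The BH3-only gene pmaip1 (Noxa) had 66.3, 76.1 and 65.0 CPM in mutant CPT, against 4.05, 4.55 and 7.81 CPM in mutant DMSO, a rise of 3.65 ± 0.31. The pore-forming baxa had 160.5, 184 and 183 CPM in mutant CPT, against 40.9, 44.9 and 53.2 CPM in mutant DMSO, a rise of 1.92 ± 0.12. The family member bcl2l10, known in mammals mainly for survival, rose by 0.56 (edgeR adjusted p = 0.000539). The survival gene bcl2a, which holds the pore closed, moved the other way, with 1.62, 0.965 and 1.17 CPM in mutant CPT, against 5.39, 3.46 and 3.195 CPM in mutant DMSO, and had a log2 fold change of -1.63 ± 0.30. The survival genes mcl1b and bcl2l1 were at 0.42 and 0.12 and did not pass the test (edgeR adjusted p = 0.115 and 0.348).

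Of 19 tested caspases and apoptosome genes 6 rose and 3 fell (31.6% and 15.8%, against 28.5% and 31.7% of all tested genes), with a median of 0.19. The gene casp8 was the single one to rise by 2-fold or more, which 7.64% of all tested genes did. The initiator caspase casp8, which acts below death receptors, had 98.9, 106 and 106 CPM in the mutant CPT libraries, against 6.25, 5.12 and 7.41 CPM in the mutant DMSO libraries. Treated libraries lay far above controls, at 16.6-fold (log2 4.05 ± 0.14, edgeR adjusted p = 1.11e-14). Cytochrome c, which triggers the apoptosome once it leaves mitochondria, rose through its gene cycsb by 0.74 ± 0.12. The inhibitor-of-apoptosis antagonist diablob rose by 0.58, while its duplicate diabloa was at 0.13 and did not pass the test (edgeR adjusted p = 0.529). The mitochondrial nuclease endog rose by 0.55. The apoptosome scaffold apaf1 went down instead, with 27.6, 23.6 and 28.5 CPM in mutant CPT, against 37.3, 37.8 and 31.8 CPM in mutant DMSO, and had a log2 fold change of -0.43 ± 0.12 (edgeR adjusted p = 0.00381). The survivin gene birc5a, which works both in survival and in mitosis, rose by 0.64, whereas the nuclease inhibitor dffa was at 0.22 (edgeR adjusted p = 0.178). 

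**Figure D2:**
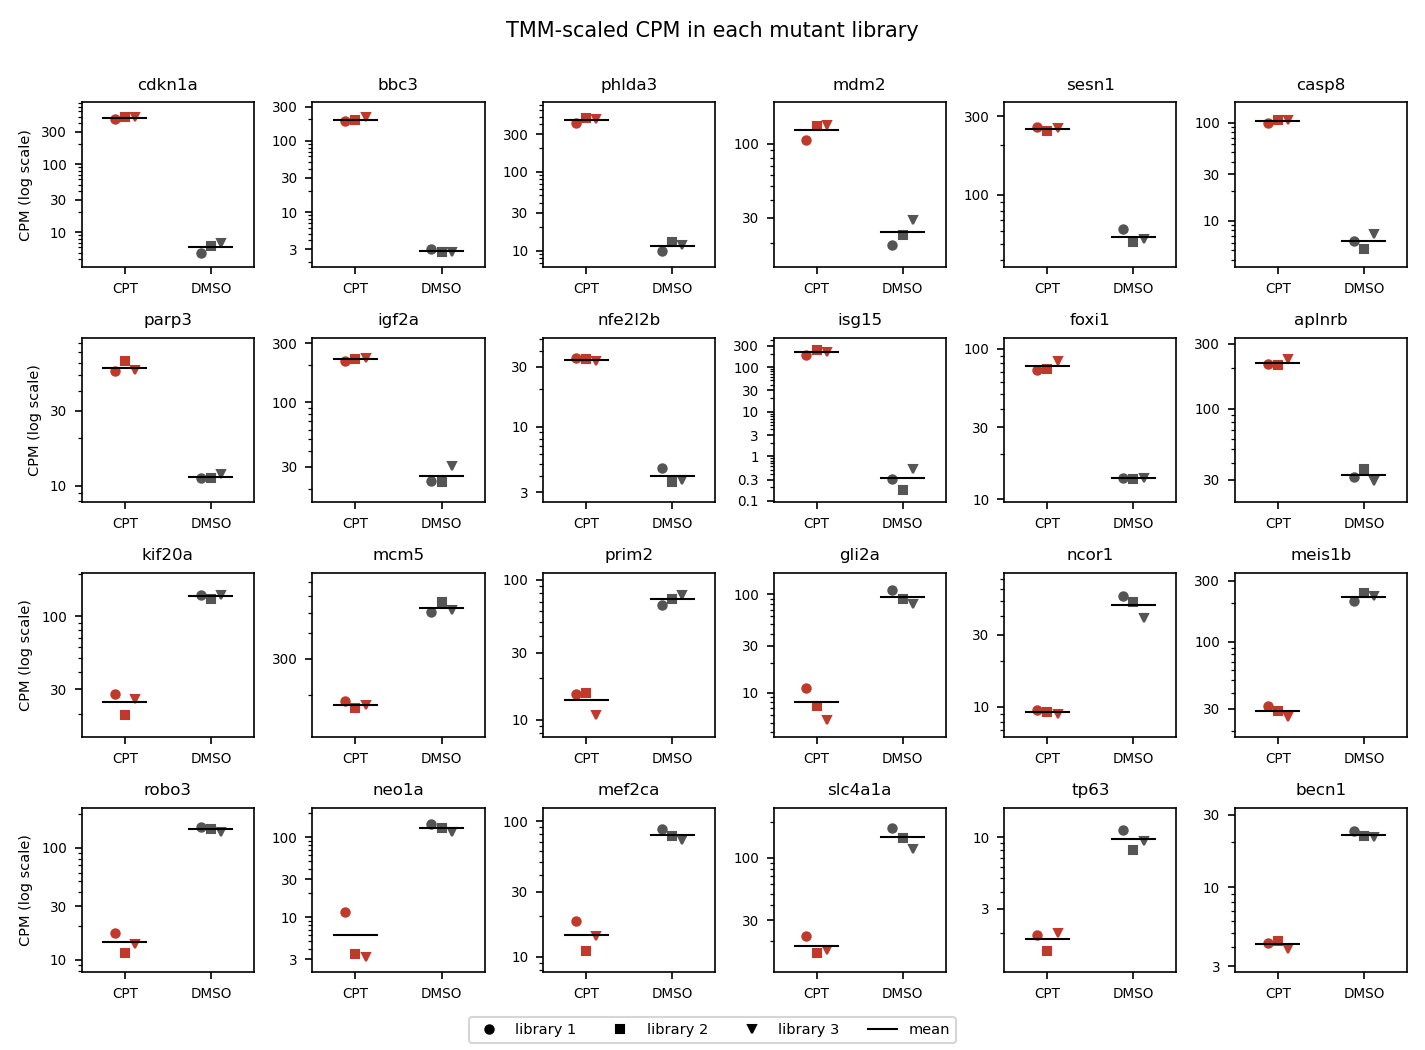
TMM-scaled CPM of 24 genes in each of the 6 mutant libraries on log axes, with CPT (red) left of DMSO (grey), a symbol for each library and a bar at the mean. The upper 2 lines of panels hold genes that rose and the lower 2 lines genes that fell, and in none of the 24 panels did a CPT library overlap with a DMSO library. The 24 genes were chosen among called genes, so this separation reflects the choice. Over all 11866 tested genes the groups did not overlap for 7848 (66.1%).

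Genes that sense DNA breaks did not rise together. Of 22 tested signalling genes 5 rose and 8 fell (22.7% and 36.4%, against 28.5% and 31.7% of all tested genes), and their median of -0.12 changed sign under 2 of the alternative settings. The break adaptor tp53bp1 fell by 0.86 and the single-strand binding subunit rpa1 by 0.85, while the ATR partner atrip rose by 0.73. Reads of rpa1 amounted to 178, 189.6 and 173 CPM in mutant CPT, against 299, 339 and 339 CPM in mutant DMSO. Those of atrip amounted to 90.4, 91.6 and 98.03 CPM in mutant CPT, against 49.8, 60.2 and 59.0 CPM in mutant DMSO, and neither gene's groups overlapped. The gene rpa3, which codes for another subunit of the same trimer, rose by 0.58. Reads of the checkpoint kinase chek2 varied widely at 29.0, 41.1 and 37.4 CPM in mutant CPT, against 33.8, 71.8 and 59.2 CPM in mutant DMSO, which did not pass the test (log2 -0.62 ± 0.35, edgeR adjusted p = 0.154).

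Among topoisomerases and the enzymes that clear their lesions, 7 of 20 rose and 4 fell (35.0% and 20.0%, against 28.5% and 31.7% of all tested genes), with a median of 0.09. Their sum went against that sign, at 0.228% ± 0.00223 of the scaled counts in mutant CPT and 0.261% ± 0.00935 in mutant DMSO (SD, n = 3 each), with no overlap of libraries. The break-responsive ADP-ribosyltransferase parp3 had 53.01, 61.3 and 54.1 CPM in the mutant CPT libraries, against 11.2, 11.2 and 11.8 CPM in the mutant DMSO libraries. Both groups were tight and did not overlap, with a rise of 2.302 ± 0.13 (edgeR adjusted p = 6.65e-12). Type II topoisomerases fell. The proliferation-linked top2a had 229, 178 and 201 CPM in mutant CPT, against 738, 699 and 614 CPM in mutant DMSO, a log2 fold change of -1.75 ± 0.13, and top2b fell by 1.26. The topoisomerase I-like gene top1l had 750.3, 733 and 753 CPM in mutant CPT, against 477, 419.6 and 458 CPM in mutant DMSO, and rose by 0.72 ± 0.12. The end-joining ligase lig4 rose by 0.82 and the protease gene ddi2, known for proteasome-linked repair of blocked forks, by 0.61. The single-strand break repair genes xrcc1 and lig3 were at 0.08 and -0.19 and did not pass the test (edgeR adjusted p = 0.484 and 0.133).

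Genes of homologous recombination, interstrand crosslink repair and end joining moved in both directions. Of 23 tested, 6 rose and 7 fell (26.1% and 30.4%, against 28.5% and 31.7% of all tested genes), and the median of 0.02 changed sign under 7 alternative settings. The crosslink nuclease dclre1b had 68.7, 64.0 and 64.0 CPM in mutant CPT, against 30.7, 28.3 and 30.6 CPM in mutant DMSO, a rise of 1.14 ± 0.10. In the Fanconi pathway, the ubiquitin-conjugating enzyme ube2t rose by 1.19 and the core complex member fancf by 1.18. Of the end-joining genes, lig4 rose (above) and xrcc4 and xrcc5 fell. The ligase cofactor xrcc4 had 5.21, 6.18 and 5.87 CPM in mutant CPT, against 20.0, 21.1 and 24.3 CPM in mutant DMSO, a log2 fold change of -1.93 ± 0.14, and the Ku subunit xrcc5 fell by 0.71.

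Of 56 tested replication genes 12 rose and 17 fell (21.4% and 30.4%, against 28.5% and 31.7% of all tested genes), with a median of -0.09. The primase subunit prim2 had 15.13, 15.6 and 10.7 CPM in the mutant CPT libraries, against 66.3, 72.9 and 78.4 CPM in the mutant DMSO libraries. The groups were separated by a fold of 5.22 (log2 -2.38 ± 0.16, edgeR adjusted p = 1.29e-10). The helicase subunit mcm5 had 186, 172 and 179.8 CPM in mutant CPT, against 504, 565 and 515 CPM in mutant DMSO, and mcm2 and mcm4 fell by 1.70 and 1.36 on the log2 scale, near the 1.56 of mcm5. The polymerase alpha subunit pola1 fell by 1.67. The atypical E2F repressor e2f7, itself a p53 target in mammals, rose by 1.21 ± 0.10, with 133, 134 and 136 CPM in mutant CPT, against 63.1, 54.6 and 56.7 CPM in mutant DMSO. Among replication genes that did not pass the test, the sliding clamp pcna was at 0.22, the ribonucleotide reductase subunit rrm1 at -0.20 and the cyclin ccnd1 at -0.09 (edgeR adjusted p = 0.101, 0.128 and 0.489).

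Genes of G2 and mitosis fell. Of 48 tested members 36 fell and 2 rose, with a median of -0.77 where 31.7% of all genes fell and 28.5% rose. Falls of 2-fold or more were called for 21 of the 48, against 16.5% of all tested genes. The cytokinesis kinesin kif20a had 27.5, 19.4 and 25.4 CPM in the mutant CPT libraries, against 143, 133 and 142 CPM in the mutant DMSO libraries. It was 5.76-fold lower after CPT (log2 -2.53 ± 0.12, edgeR adjusted p = 1.3e-12). The anaphase activator cdc20 had 40.4, 45.5 and 35.5 CPM in mutant CPT, against 140.3, 156 and 163 CPM in mutant DMSO. The spindle protein tacc3 had 94.8, 86.5 and 94.4 CPM in mutant CPT, against 279, 268 and 259 CPM in mutant DMSO, and the groups of both genes were well apart. Their log2 fold changes were -1.92 ± 0.11 and -1.55 ± 0.09. The bipolar spindle motor kif11 fell by 1.56, and both copies of the midzone bundler prc1 fell, prc1a by 1.43 and prc1b by 1.56. The decline did not reach every mitotic gene. The mitotic cyclin ccnb1 had 249, 279 and 287 CPM in mutant CPT, against 278, 268 and 269.8 CPM in mutant DMSO, and its groups overlapped (log2 -0.0008, edgeR adjusted p = 0.996), and the checkpoint gene mad2l1 was at 0.01. As a sum, the list held 0.505% ± 0.00663 of the scaled counts in mutant CPT and 0.875% ± 0.0156 in mutant DMSO (SD, n = 3 each).

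Immediate early genes, which respond to stress and growth signals within minutes to hours, rose. Of 42 tested members 25 rose and 2 fell (59.5% and 4.76%, against 28.5% and 31.7% of all tested genes). Rises of 2-fold or more were called for 17 of the 42, against 7.64% of all tested genes, and the median of the list was 0.90. The AP-1 subunit fosab had 185, 174 and 194 CPM in the mutant CPT libraries, against 4.54, 3.77 and 6.04 CPM in the mutant DMSO libraries. It was 38.7-fold higher (log2 5.27 ± 0.20, edgeR adjusted p = 1.65e-12), and fosl1a, with 45.8, 37.5 and 42.8 CPM in mutant CPT, against 1.23, 1.40 and 1.62 CPM in mutant DMSO, was 29.4-fold higher. The Jun partner junbb had 98.3, 108 and 116 CPM in mutant CPT, against 21.1, 26.5 and 20.8 CPM in mutant DMSO, a rise of 2.23 ± 0.16. The stress-induced atf3 rose by 2.58, fosl2 by 1.92 and ier2a by 2.06. The zinc finger gene klf6a and the Myc gene myca did not pass the test at 0.02 and -0.02 (edgeR adjusted p = 0.835 and 0.874).

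Interferon and cytokine feedback genes rose in part. Of 43 tested members 22 rose and 5 fell (51.2% and 11.6%, against 28.5% and 31.7% of all tested genes). Their median was 0.65, with quartiles of -0.22 to 1.17. The ubiquitin-like modifier isg15 had 189, 244 and 219 CPM in the mutant CPT libraries, against 0.307, 0.175 and 0.507 CPM in the mutant DMSO libraries. This was a 660.1-fold difference (log2 9.37 ± 0.30), against a log2 fold change of 7.71 in wild type, and the difference of 1.65 ± 0.54 between genotypes did not pass the test (edgeR adjusted p = 0.162). In mutant DMSO isg15 was near the detection limit, so the size of its fold and of this difference rests on few reads there. The interferon regulatory factor irf1b rose by 3.48 ± 0.37, with 7.05, 8.04 and 10.2 CPM in mutant CPT, against 0.736, 0.919 and 0.558 CPM in mutant DMSO. The cytokine brakes socs3a and socs3b rose by 3.41 and 1.72, and the cytokine il1b by 2.71. The transcription factor stat3, which socs3 restrains, fell, with 18.4, 16.4 and 17.9 CPM in mutant CPT, against 47.0, 46.1 and 46.1 CPM in mutant DMSO, at a log2 fold change of -1.40 ± 0.13. The NF-kappaB subunit rela was at 0.16 and the inhibitor nfkbiab at 0.17, and neither passed the test (edgeR adjusted p = 0.446 and 0.292).

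The integrated stress and unfolded protein responses did not move as a whole. Of 41 tested genes 14 rose and 13 fell (34.1% and 31.7%, against 28.5% and 31.7% of all tested genes), and their sum overlapped between the groups at 0.492% ± 0.00917 of the scaled counts in mutant CPT and 0.495% ± 0.0120 in mutant DMSO (SD, n = 3 each). The mTORC1 inhibitor ddit4, which p53 also induces in mammals, had 169.9, 200.2 and 243 CPM in the mutant CPT libraries, against 40.9, 44.5 and 57.6 CPM in the mutant DMSO libraries. It rose by 2.099 ± 0.23 with no overlap of libraries (edgeR adjusted p = 5.53e-06). The amino acid transporter chain slc3a2b rose by 1.13 and atf5a by 0.89, while the serine synthesis enzymes phgdh and psat1 fell by 0.78 and 0.57. The central regulator atf4a was at 0.07 and the endoplasmic reticulum folding enzyme pdia4 at 0.15, and neither passed the test (edgeR adjusted p = 0.592 and 0.216).

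Heat shock genes rose more often than they fell. Of 32 tested members 20 rose and 2 fell (62.5% and 6.25%, against 28.5% and 31.7% of all tested genes), with a median of 0.40. The collagen chaperone serpinh1a, which helps collagen fold in the secretory pathway, had 604, 688 and 682 CPM in mutant CPT, against 167, 161 and 161 CPM in mutant DMSO, a rise of 2.01 ± 0.13. The DnaJ co-chaperones dnajb1b and dnaja1 rose by 0.87 and 0.78, and the mitochondrial chaperonin hspe1 by 0.76. The cytosolic chaperone hsp90ab1 was at 0.15 and did not pass the test (edgeR adjusted p = 0.384). 

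Oxidative stress genes, many of them driven by the transcription factor Nrf2, rose in 16 and fell in 6 of 35 cases, with a median of 0.18. These shares were 45.7% and 17.1%, against 28.5% and 31.7% of all tested genes. The Nrf2 copy nfe2l2b had 35.3, 34.6 and 33.2 CPM in the mutant CPT libraries, against 4.66, 3.63 and 3.75 CPM in the mutant DMSO libraries. The treated libraries were close to each other and 8.61-fold above the controls (log2 3.11 ± 0.19, edgeR adjusted p = 3.29e-11). Glutathione peroxidase gpx1b had 28.9, 36.2 and 31.7 CPM in mutant CPT, against 6.44, 6.66 and 8.22 CPM in mutant DMSO, a rise of 2.18 ± 0.15. The glutathione synthesis subunit gclm rose by 1.75 ± 0.13, and the iron store fth1a by 1.13, with 2313, 2915 and 2962 CPM in mutant CPT, against 1399, 1181 and 1161 CPM in mutant DMSO. The pentose phosphate enzyme tktb and the peroxidase gpx4b were at 0.15 and 0.14 and did not pass the test (edgeR adjusted p = 0.33 and 0.389).

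Ribosomal protein genes took a larger share of the reads after CPT. Of 81 tested, 57 rose (70.4%, against 28.5% of all tested genes) and the other 24 did not pass the test. Their median was 0.62, with quartiles of 0.46 to 0.78. Together they held 16.8% ± 1.05 of the scaled counts in mutant CPT and 11.1% ± 1.34 in mutant DMSO (SD, n = 3 each). The acidic stalk protein rplp1 had 6309, 8389 and 7172 CPM in mutant CPT, against 3601, 4211 and 3775 CPM in mutant DMSO, a rise of 0.92 ± 0.13. The small-subunit gene rps20 had 2260.5, 3018 and 2765 CPM in mutant CPT, against 1066, 1154 and 1059.6 CPM in mutant DMSO, a rise of 1.29 ± 0.18. The small-subunit gene rps6 overlapped between groups, with 2503, 2670.2 and 2567 CPM in mutant CPT, against 1819.7, 2761 and 2298 CPM in mutant DMSO (log2 0.17, edgeR adjusted p = 0.441). Counts of ribosomal protein, actin, keratin, globin and heat shock genes can be split between near-identical copies, so single members of these families are uncertain.

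Factors that build ribosomes were mixed in direction but mostly higher, 46 up and 9 down of 84, with a median of 0.33. These shares were 54.8% and 10.7%, against 28.5% and 31.7% of all tested genes. The large-subunit processing factor bop1 had 48.1, 42.2 and 37.5 CPM in mutant CPT, against 147, 164 and 162 CPM in mutant DMSO, a log2 fold change of -1.89 ± 0.14, while the assembly factor rrs1 rose by 1.23 ± 0.16, with 187, 232 and 211 CPM in mutant CPT, against 62.6, 100.0 and 104 CPM in mutant DMSO. The shared RNA polymerase I and III subunit polr1c rose by 1.18, and utp3 and utp4 of the small-subunit processome by 1.05 and 0.84. The nucleolar methyltransferase fbl was at 0.22 and the core snoRNP protein nop56 at 0.11, and neither passed the test (edgeR adjusted p = 0.157 and 0.407).

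Respiratory chain genes rose in 40 and fell in 2 of 73 cases (median 0.33). These shares were 54.8% and 2.74%, against 28.5% and 31.7% of all tested genes. Examples were the small cytochrome oxidase subunit cox8a at 0.85, the ATP synthase rotor subunit atp5f1c at 0.87 and the complex III subunit uqcr10 at 0.82. The large ATP synthase subunits atp5fa1 and atp5f1b were at -0.0024 and 0.09 and did not pass the test (edgeR adjusted p = 0.988 and 0.537). Proteasome genes moved in both directions. Of 44 tested 20 rose and 5 fell (45.5% and 11.4%, against 28.5% and 31.7% of all tested genes). The non-ATPase base and lid subunits psmd1, psmd2 and psmd6 fell by 1.02, 0.95 and 0.74. The core subunit psma4 rose by 0.57 and the assembly chaperone psmg3 by 1.14. Reads of psmd1 amounted to 271, 232 and 224 CPM in mutant CPT, against 486, 515 and 473 CPM in mutant DMSO. Those of psma4 amounted to 302, 324 and 292 CPM in mutant CPT, against 184, 219.8 and 216 CPM in mutant DMSO, and neither gene's groups overlapped. The ATPase subunit psmc3 was at 0.14 (edgeR adjusted p = 0.238).

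**Figure D3:**
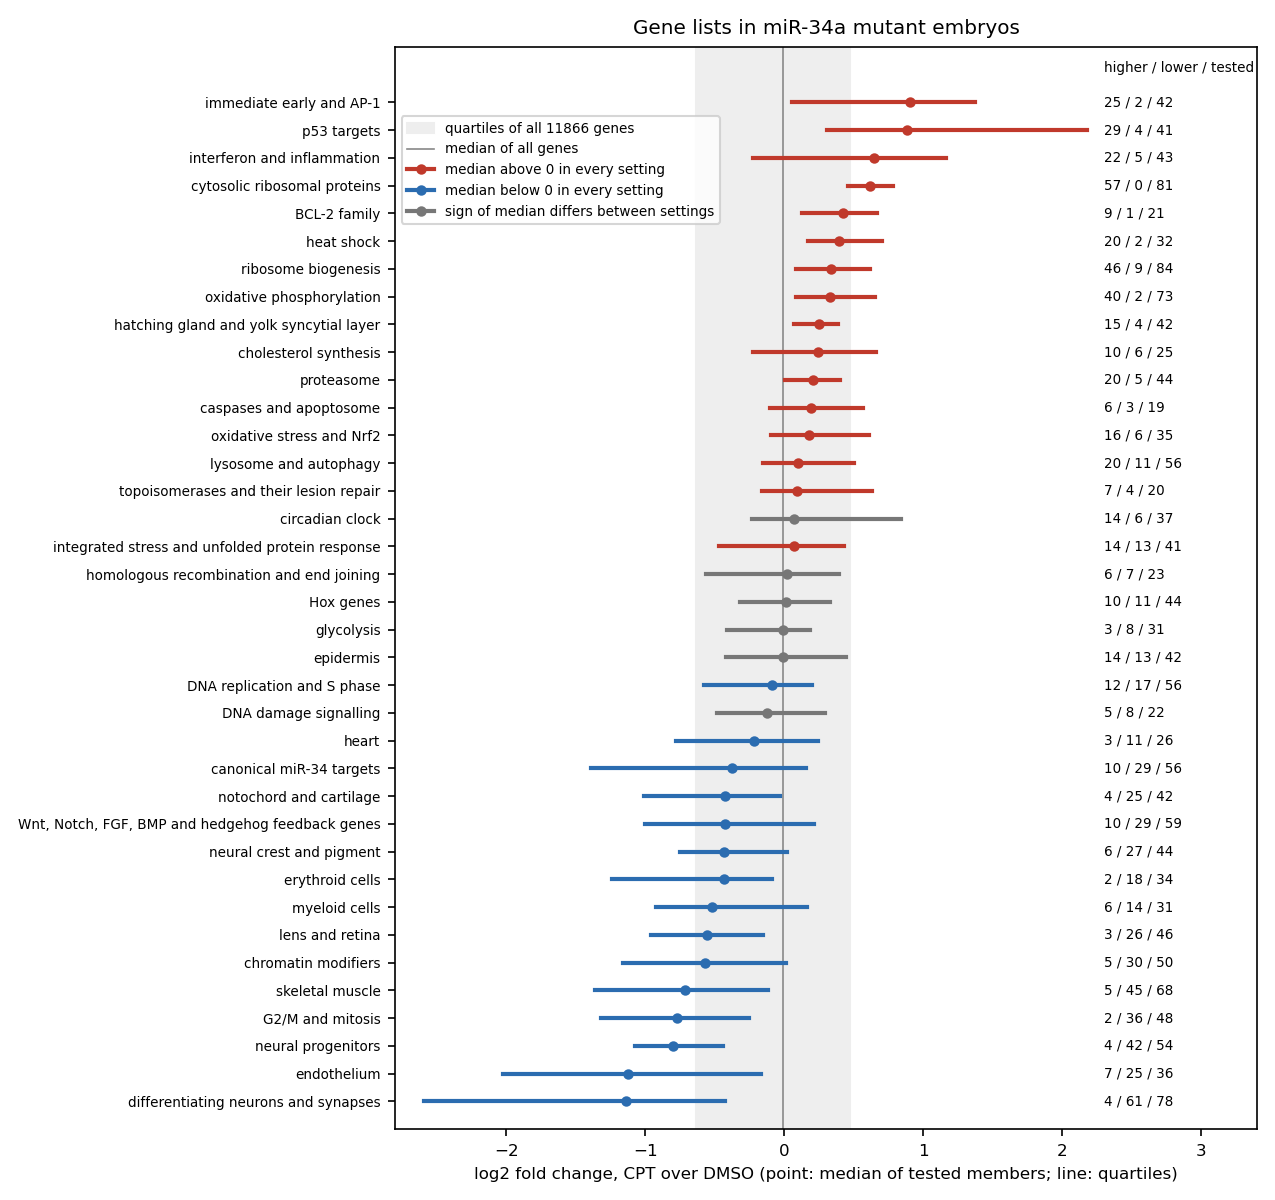
Median (point) and quartiles (line) of the log2 fold change, CPT over DMSO, of the tested members of 37 gene lists, with the counts of members called higher, called lower and tested at the right and the quartiles of all 11866 genes in grey. Immediate early genes and p53 targets have the highest medians (0.90 and 0.89) and neuronal and endothelial genes the lowest (-1.14 and -1.12), and grey lists have medians whose sign differed between settings. The lists were chosen with earlier results of these data known.

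Most of the tested chromatin genes fell. Of 94 names in this list, 51 were found in the count table and 50 were tested, so the list was covered only in part. Of the 50 tested members 30 fell and 5 rose (60% and 10%, against 31.7% and 28.5% of all tested genes). The median was -0.57, and 16 of the 50 fell by 2-fold or more, against 16.5% of all tested genes. The nuclear co-repressor ncor1 had 9.61, 9.20 and 8.96 CPM in the mutant CPT libraries, against 54.2, 49.3 and 38.8 CPM in the mutant DMSO libraries. The treated libraries were close to each other, and the group was 5.11-fold lower (log2 -2.35 ± 0.14, edgeR adjusted p = 2.41e-11). The SWI/SNF subunit arid1b had 7.09, 5.34 and 4.70 CPM in mutant CPT, against 53.3, 43.5 and 32.2 CPM in mutant DMSO, a log2 fold change of -2.89 ± 0.19. The histone deacetylase hdac4 and the DNA methyltransferase dnmt3bb.1 fell by 2.85 and 2.29. In contrast the deacetylase hdac1, the remodeller smarca5 and the demethylase kdm1a were at -0.04, 0.06 and -0.02 and did not pass the test (edgeR adjusted p = 0.754, 0.618 and 0.855).

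Developmental signalling genes fell more often than they rose, 29 against 10 of 59, with a median of -0.43. These shares were 49.2% and 16.9%, against 31.7% and 28.5% of all tested genes. Hedgehog effectors were low after CPT. The transcription factor gli2a had 11.3, 7.40 and 5.36 CPM in the mutant CPT libraries, against 109.7, 89.98 and 79.7 CPM in the mutant DMSO libraries. CPT library 1 was the highest of the treated libraries, and the group was 11.3-fold lower (log2 -3.50 ± 0.23, edgeR adjusted p = 8.34e-09). The hedgehog target gli1 had 25.4, 20.1 and 24.0 CPM in mutant CPT, against 76.8, 68.6 and 62.8 CPM in mutant DMSO, a log2 fold change of -1.58 ± 0.14. In the Wnt pathway, the transcription factor lef1 fell by 1.70 and the receptor-clearing ligase znrf3 by 2.52. The BMP inhibitor smad6b fell by 1.40, with 23.3, 24.4 and 21.6 CPM in mutant CPT, against 61.3, 62.3 and 59.8 CPM in mutant DMSO, and the Notch target her8a fell by 1.00. The BMP target id1 and the Notch ligand dlb were at -0.04 and 0.20 and did not pass the test (edgeR adjusted p = 0.772 and 0.114).

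Hox genes, which set position along the body axis, were divided, with 10 higher and 11 lower of 44 (22.7% and 25%, against 28.5% and 31.7% of all tested genes), and the sign of their median of 0.0090 changed under 3 alternative settings. The anterior gene hoxb3a had 66.1, 57.5 and 59.1 CPM in mutant CPT, against 125, 116 and 127 CPM in mutant DMSO, a log2 fold change of -1.01 ± 0.10. The posterior gene hoxc9a had 34.8, 36.6 and 30.9 CPM in mutant CPT, against 17.96, 18.7 and 18.7 CPM in mutant DMSO. The posterior gene hoxb10a had 38.6, 40.2 and 40.6 CPM in mutant CPT, against 24.9, 20.9 and 22.3 CPM in mutant DMSO. Both of these rose, by 0.89 and 0.81, with tight groups, while hoxc10a and hoxa11a fell by 1.74 and 2.60. The cofactor genes meis1a, meis1b and meis2a fell by 2.05, 2.97 and 2.87.

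Neural progenitor genes fell. Of 54 tested members 42 fell and 4 rose (77.8% and 7.41%, against 31.7% and 28.5% of all tested genes). The median was -0.80 in mutants and -0.53 in wild type, a difference between genotypes that was not tested for the list. The homeobox gene meis1b had 31.6, 28.8 and 26.0 CPM in the mutant CPT libraries, against 209, 239 and 229 CPM in the mutant DMSO libraries. It was 7.83-fold lower (edgeR adjusted p = 1.56e-13), and meis2a, with 23.3, 15.96 and 16.01 CPM in mutant CPT, against 149, 138 and 119 CPM in mutant DMSO, was 7.30-fold lower. The adhesion molecule cdh2 (N-cadherin) had 19.2, 18.3 and 15.6 CPM in mutant CPT, against 86.6, 72.2 and 72.9 CPM in mutant DMSO. The RNA-binding protein msi1 had 56.0, 57.5 and 54.4 CPM in mutant CPT, against 165, 147 and 154 CPM in mutant DMSO. These groups did not overlap, and the log2 fold changes were -2.12 ± 0.14 and -1.47 ± 0.09. The SoxC genes sox11a and sox11b, also high in new neurons, were at -0.01 and 0.15 and did not pass the test (edgeR adjusted p = 0.941 and 0.229).

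Genes of differentiating neurons had a median of -1.14, with 61 lower and 4 higher of 78, and 43 of the falls reached 2-fold. The shares lower and higher were 78.2% and 5.13%, against 31.7% and 28.5% of all tested genes. Falls of 2-fold or more were called for 16.5% of all tested genes. Axon guidance receptors of the Robo family fell. The commissural receptor robo3 had 17.5, 11.5 and 14.0 CPM in the mutant CPT libraries, against 153, 146 and 139 CPM in the mutant DMSO libraries, a 10.1-fold fall (log2 -3.34 ± 0.14, edgeR adjusted p = 2.68e-13). Its relative robo1 had 7.23, 3.02 and 2.94 CPM in mutant CPT, against 102, 93.5 and 79.2 CPM in mutant DMSO, and CPT library 1 held more than both other treated libraries. The log2 fold change of robo1 was -4.31, and -4.94 without that library. The netrin receptor neo1a had 11.5, 3.48 and 3.23 CPM in the mutant CPT libraries, against 148, 131 and 115 CPM in the mutant DMSO libraries. Its log2 fold change of -4.35 became -5.29 without CPT library 1, which had over 3 times the level of the other treated libraries. The Slit ligand slit3 fell by 3.07 and the adhesion molecule dscama by 3.17. Of neuronal RNA-binding proteins, elavl4 had 14.4, 9.59 and 11.5 CPM in mutant CPT, against 93.5, 73.1 and 69.6 CPM in mutant DMSO. Its pan-neuronal relative elavl3 had 108, 81.1 and 103 CPM in mutant CPT, against 148, 97.5 and 91.8 CPM in mutant DMSO, with overlapping groups. The fall of elavl4 passed the test (log2 -2.72 ± 0.14) and elavl3 did not (log2 -0.21 ± 0.16, edgeR adjusted p = 0.265). The splicing regulator celf4 was almost lost, with 0.135, 0.193 and 0.147 CPM in mutant CPT, against 8.95, 8.32 and 6.19 CPM in mutant DMSO, a log2 fold change of -5.59. Its level in mutant CPT was near the detection limit, so the size of this fold rests on few reads there. The tubulins tubb5 and tuba1c were at -0.02 and -0.10 and did not pass the test (edgeR adjusted p = 0.901 and 0.357).

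Of 68 tested skeletal muscle genes 45 fell and 5 rose (66.2% and 7.35%, against 31.7% and 28.5% of all tested genes), with a median of -0.71. The list's share of the scaled counts was 3.66% ± 0.347 in mutant CPT and 6.04% ± 0.501 in mutant DMSO (SD, n = 3 each). The transcription factor mef2ca had 18.3, 11.01 and 14.2 CPM in the mutant CPT libraries, against 86.7, 78.0 and 72.4 CPM in the mutant DMSO libraries. It was 5.404-fold lower (log2 -2.43 ± 0.15, edgeR adjusted p = 6.18e-11), and mef2d and mef2cb fell by 2.401 and 2.49. The calcium channel subunit cacna1sa and the membrane anchor dmd (dystrophin) fell by 2.18 and 2.07. The differentiation factor gene myog (myogenin), singled out after its values were seen, rose by 1.54 ± 0.16, with 104, 134 and 106 CPM in mutant CPT, against 29.1, 43.3 and 46.2 CPM in mutant DMSO. The tropomyosin tpm2 and the calcium store casq2 were at -0.01 and 0.10 and did not pass the test (edgeR adjusted p = 0.96 and 0.398).

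Of 26 tested heart genes, 11 fell and 3 rose (42.3% and 11.5%, against 31.7% and 28.5% of all tested genes), with a median of -0.22. The sodium-calcium exchanger slc8a1a, which cardiac relaxation needs, had 1.98, 1.29 and 1.98 CPM in mutant CPT, against 9.26, 6.61 and 7.96 CPM in mutant DMSO, a log2 fold change of -2.17, and the matrix proteoglycan vcana fell by 1.98. The light chain cmlc1 and the factor gata5 were at 0.12 and 0.05 and did not pass the test (edgeR adjusted p = 0.399 and 0.691).

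Endothelial genes fell, with the apelin receptor gene far in the other direction. Of 36 tested, 25 fell and 7 rose (69.4% and 19.4%, against 31.7% and 28.5% of all tested genes). The median was -1.12, and 19 of the 36 fell by 2-fold or more, against 16.5% of all tested genes. The semaphorin and VEGF co-receptor nrp1a had 15.98, 9.91 and 11.3 CPM in mutant CPT, against 110.5, 124 and 109.7 CPM in mutant DMSO, a log2 fold change of -3.19. The VEGF receptor kdrl had 5.75, 4.96 and 4.85 CPM in mutant CPT, against 34.3, 30.7 and 28.5 CPM in mutant DMSO. The lymphatic VEGF receptor flt4 had 6.96, 7.14 and 6.24 CPM in mutant CPT, against 38.3, 40.4 and 36.1 CPM in mutant DMSO. Both fell, by 2.58 and 2.49, and the arteriovenous receptor ephb4a fell by 1.78. The apelin receptor aplnrb, in contrast, had 213, 209 and 231 CPM in the mutant CPT libraries, against 31.6, 35.9 and 29.5 CPM in the mutant DMSO libraries. It was 6.73-fold higher with no overlap (log2 2.75 ± 0.12, edgeR adjusted p = 3.78e-13). The blood and vessel factors tal1 and lmo2 were both at -0.30 and did not pass the test (edgeR adjusted p = 0.0677 and 0.051).

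Of 34 tested erythroid genes 18 fell and 2 rose (52.9% and 5.88%, against 31.7% and 28.5% of all tested genes), with a median of -0.44. The anion exchanger slc4a1a (band 3) had 22.4, 16.2 and 17.0 CPM in the mutant CPT libraries, against 179, 146 and 119 CPM in the mutant DMSO libraries, a log2 fold change of -2.99 in a gene picked after its values were seen (edgeR adjusted p = 1.13e-07). The skeleton proteins epb41b and ank1a fell by 2.15 and 1.28, the carbonic anhydrase cahz fell by 1.60 and the heme-forming enzyme fech fell by 2.03. The globins hbae3, hbbe1.3 and hbbe1.2 were at -0.21, -0.08 and -0.11, and did not pass the test (edgeR adjusted p = 0.214, 0.611 and 0.558). Reads of hbae3 were uneven even among controls, at 1985, 1367 and 1523 CPM in mutant CPT, against 2132, 1727 and 1792 CPM in mutant DMSO.

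Myeloid genes fell in 14 and rose in 6 of 31 cases (45.2% and 19.4%, against 31.7% and 28.5% of all tested genes). Their median was -0.52. Their sum went the other way, at 0.790% ± 0.0294 of the scaled counts in mutant CPT and 0.649% ± 0.0592 in mutant DMSO (SD, n = 3 each), with no overlap of libraries. A sum gives most weight to the members with the most reads, so it does not describe the typical member. The neutrophil peroxidase mpx had 20.8, 16.4 and 18.6 CPM in mutant CPT, against 41.9, 32.2 and 36.2 CPM in mutant DMSO, a log2 fold change of -0.98 ± 0.15, and the lineage factor spi1b fell by 1.55 and lysozyme lyz by 0.80. The chemokine receptor cxcr4b, also used by migrating progenitors outside the blood, rose by 1.37 ± 0.17, with 28.8, 37.8 and 29.8 CPM in mutant CPT, against 12.8, 10.9 and 13.7 CPM in mutant DMSO. The small GTPase rac2 was at -0.10 (edgeR adjusted p = 0.508).

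Neural crest and pigment genes fell in 27 and rose in 6 of 44 cases (median -0.44). These shares were 61.4% and 13.6%, against 31.7% and 28.5% of all tested genes. The iridophore enzyme pnp4a had 1.57, 2.06 and 1.62 CPM in mutant CPT, against 6.31, 7.66 and 7.05 CPM in mutant DMSO, a log2 fold change of -2.01, the neuregulin receptor erbb3a fell by 1.37 and tfap2e by 1.34, whereas the early crest factor snai1a rose by 0.84. The purine synthesis genes paics, gart and atic were at 0.19, -0.16 and -0.23 and did not pass the test (edgeR adjusted p = 0.176, 0.309 and 0.0546). In the eye, 26 of 46 lens and retina genes fell and 3 rose (median -0.55, and -0.30 in wild type). These shares were 56.5% and 6.52%, against 31.7% and 28.5% of all tested genes. The retinal factor rx2 fell by 2.27 and the crystallin cryba2a by 1.39. The eye master regulator gene pax6a had 51.6, 44.5 and 47.9 CPM in mutant CPT, against 105, 102 and 103 CPM in mutant DMSO. Its duplicate pax6b had 12.3, 8.04 and 9.03 CPM in mutant CPT, against 37.9, 34.7 and 33.8 CPM in mutant DMSO. Both fell, with log2 fold changes of -1.11 for pax6a and -1.84 for pax6b, and the eye field gene six3b was at -0.08 (edgeR adjusted p = 0.535).

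Epidermal genes were divided, 14 higher and 13 lower of 42 (33.3% and 31.0%, against 28.5% and 31.7% of all tested genes), and the sign of their median changed under 9 alternative settings. The ionocyte factor foxi1 had 72.4, 73.4 and 83.4 CPM in the mutant CPT libraries, against 13.8, 13.6 and 13.9 CPM in the mutant DMSO libraries. Control libraries were nearly identical and treated ones 5.55-fold higher (log2 2.47 ± 0.14, edgeR adjusted p = 6.65e-12). The basal keratinocyte factor tp63, of the p53 family, had 1.93, 1.48 and 1.98 CPM in mutant CPT, against 11.3, 8.01 and 9.43 CPM in mutant DMSO, a log2 fold change of -2.403. The ATPase subunit atp1b1b, used by ionocytes, fell by 1.78. Keratins krt4 and krt17 were at -0.27 and 0.60 and did not pass the test (edgeR adjusted p = 0.187 and 0.114).

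Notochord and cartilage genes fell in 25 and rose in 4 of 42 cases (median -0.43). These shares were 59.5% and 9.52%, against 31.7% and 28.5% of all tested genes. The cartilage factor sox5 had 14.2, 9.27 and 14.6 CPM in mutant CPT, against 50.8, 47.2 and 40.9 CPM in mutant DMSO. Its partner sox6 had 4.49, 1.67 and 2.57 CPM in mutant CPT, against 37.3, 31.3 and 25.4 CPM in mutant DMSO. Both fell, by 1.86 and 3.37, and the matrix gene matn3a fell by 2.25. Collagen col9a2 was at -0.22 (edgeR adjusted p = 0.0768). Genes of the hatching gland and of the yolk syncytial layer, which feeds the embryo, rose in 15 and fell in 4 of 42 cases (35.7% and 9.52%, against 28.5% and 31.7% of all tested genes), with a median of 0.25. The hatching enzyme he1.2 rose by 0.72 and the antifreeze-like afp4 by 0.72, the fibrinogen chains fgb and fga fell by 1.02 and 0.57, and the apolipoproteins apoa1b and apoa2 were at 0.14 and 0.05 without passing the test (edgeR adjusted p = 0.343 and 0.725).

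Genes known from mammals as miR-34 targets were examined because the mutants lack the microRNA. Of 56 tested, 29 fell and 10 rose (51.8% and 17.9%, against 31.7% and 28.5% of all tested genes). Their median was -0.38 in mutants and -0.15 in wild type, a difference not tested for the list. The Notch receptor notch1a had 130.2, 103 and 122 CPM in mutant CPT, against 389.5, 319.8 and 268 CPM in mutant DMSO, a log2 fold change of -1.46 in mutants beside a log2 fold change of -0.95 in wild type. The difference of -0.51 ± 0.17 did not pass the interaction test (edgeR adjusted p = 0.157). The receptor tyrosine kinase met fell by 2.43, and its wild-type log2 fold change was -2.299. The forkhead genes foxp1a and foxp1b fell by 1.61 and 2.31. The deacetylase hdac1 and the catenin ctnnb2 were at -0.04 and 0.26 (edgeR adjusted p = 0.754 and 0.0542), and mycn had 213, 208 and 199 CPM in mutant CPT, against 200.1, 231 and 225 CPM in mutant DMSO, with overlapping libraries and a log2 fold change of -0.08 (edgeR adjusted p = 0.474).

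Circadian and light-responsive genes rose in 14 and fell in 6 of 37 cases (37.8% and 16.2%, against 28.5% and 31.7% of all tested genes), with a median of 0.07 in mutants whose sign changed in 1 alternative setting, and 0.51 in wild type. The bZIP repressor nfil3-6 had 9.20, 10.2 and 11.8 CPM in mutant CPT, against 2.08, 1.53 and 1.57 CPM in mutant DMSO, a rise of 2.59 ± 0.22. The repressors cry1aa and cry1bb rose by 1.33 and 1.11, and the light-inducible per2 was at 0.22 (edgeR adjusted p = 0.0704). Sterol genes were split, 10 higher and 6 lower of 25 (40.0% and 24.0%, against 28.5% and 31.7% of all tested genes), with idi1 higher by 0.75 and the regulators srebf1 and srebf2 lower by 0.68 and 0.48. In glycolysis 3 of 31 genes rose and 8 fell (9.68% and 25.8%, against 28.5% and 31.7% of all tested genes). The muscle phosphofructokinase pfkma fell by 1.68, pgam1a rose by 0.94 and gapdh was at -0.05 (edgeR adjusted p = 0.734).

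Of 56 tested lysosome and autophagy genes 20 rose and 11 fell (35.7% and 19.6%, against 28.5% and 31.7% of all tested genes), with a median of 0.10. Genes of the beclin complex, which starts autophagosome formation, were among the falls. The beclin gene becn1 had 4.26, 4.44 and 3.89 CPM in the mutant CPT libraries, against 23.5, 21.9 and 21.4 CPM in the mutant DMSO libraries, with tight groups and a log2 fold change of -2.400 ± 0.16 (edgeR adjusted p = 9.99e-11), and its partners uvrag and ambra1a fell by 2.83 and 1.52. The cargo receptor sqstm1 and the membrane protein lamp1 rose by 0.82 and 0.98. The lysosomal hydrolase activator psap was at 0.08 (edgeR adjusted p = 0.545).

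Outside the lists, the genes with the smallest p-values included growth and signalling genes. The insulin-like growth factor igf2a had 215, 225 and 228 CPM in the mutant CPT libraries, against 23.2, 22.6 and 30.3 CPM in the mutant DMSO libraries. It was 8.77-fold higher with no overlap (log2 3.13 ± 0.14, edgeR adjusted p = 3.72e-13). The sorting nexin snx11 had 174, 168 and 162 CPM in mutant CPT, against 22.2, 17.1 and 21.7 CPM in mutant DMSO, a rise of 3.05 ± 0.12. Its treated libraries lay close to each other and far above the controls. The semaphorin receptor nrp2b had 17.3, 12.4 and 12.2 CPM in mutant CPT, against 148, 137 and 127 CPM in mutant DMSO, a log2 fold change of -3.28 ± 0.14. The actin regulator enah and the general transcription factor taf6 fell by 3.37 and 3.23, and the synaptic scaffold caska by 2.07. The genes nrxn2a, nlgn3a and mycbp2 were named for large falls and not for the smallest p. The presynaptic neurexin gene nrxn2a had 0.0898, 0.0644 and 0.147 CPM in mutant CPT, against 4.35, 2.63 and 3.09 CPM in mutant DMSO. Its postsynaptic counterpart nlgn3a, a neuroligin, had 0.135, 0.0644 and 0 CPM in mutant CPT, against 3.43, 3.63 and 2.49 CPM in mutant DMSO. Both were near the detection limit after CPT. The log2 fold change of nrxn2a was -5.01, and that of nlgn3a was -5.26, or -6.30 without CPT library 1. The ubiquitin ligase mycbp2, an axon regulator, had 0.0898, 0.0644 and 0.0734 CPM in mutant CPT, against 6.01, 3.55 and 4.72 CPM in mutant DMSO, a log2 fold change of -5.82 in mutants and -2.94 in wild type. That difference, -2.88 ± 0.64, did not pass the interaction test (edgeR adjusted p = 0.069). In mutant CPT mycbp2 was also near the detection limit, so its fold and this difference rest on few reads there.

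A few genes were switched between near 0 and clearly detected. In 6 genes the 3 DMSO libraries held at most 3 counts in all and each CPT library at least 10. The genes were picked from the whole count table by these same counts. Their ratios may therefore be overstated, and the intervals do not allow for that choice. The cerebellin-type gene cbln12 had 26, 28 and 37 counts in mutant CPT and 0 in all mutant DMSO libraries. Taking 3 counts over the DMSO group as the limit, it was at least 33.5-fold higher per library total. The uncharacterised si:dkey-204l11.1 had 74, 40 and 64 counts in mutant CPT, against 1, 0 and 1 in mutant DMSO. Scaled by summed library totals, the ratio was 98.4, with an exact 95% counting interval of 26.8 to 819 that covers counting error only. The antiviral gene rsad2 had 17, 14 and 12 counts in mutant CPT and 3, 0 and 0 in mutant DMSO, a ratio of 15.8 with an interval of 5.07 to 79.9. All its control counts came from DMSO library 1, and the fitted log2 fold change of 3.88 was 7.13 without that library (against 0 counts, so no bound) and 3.23 without DMSO library 2. The inflammation-induced tnfaip6 had 12, 12 and 15 counts in mutant CPT, against 1, 0 and 1 in mutant DMSO, a ratio of 21.6 with an interval of 5.58 to 184. The vitellogenin gene vtg3 had 40 counts in sum in mutant CPT and 3 in mutant DMSO, a ratio of 14.7 with an interval of 4.69 to 74.5. The uncharacterised si:ch1073-376c22.1 had 52 counts in sum in mutant CPT and 3 in mutant DMSO, a ratio of 19.2 with an interval of 6.20 to 95.9. All 3 of its control counts came from DMSO library 1, and the fitted log2 fold change of 4.13 was 7.39 without that library (against 0 counts, so no bound) and 3.48 without DMSO library 2.

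In 6 other genes, picked by the reverse rule and with the same limit on ratios and intervals, the CPT libraries were nearly empty. The metabotropic glutamate receptor grm8b had 2, 0 and 0 counts in mutant CPT, against 17, 20 and 27 in mutant DMSO, a ratio of 0.0346 with an interval of 0.0041 to 0.13. The serotonin receptor htr2cl1 had 1, 0 and 0 counts in mutant CPT, against 15, 24 and 15 in mutant DMSO, a ratio of 0.0205 with an interval of 0.00051 to 0.119. The neuregulin nrg2b had 0, 1 and 0 counts in mutant CPT, against 11, 20 and 20 in mutant DMSO, a ratio of 0.0217 with an interval of 0.00054 to 0.126. The cell adhesion gene cadm2a, luzp2 and the transporter slc12a10.2 each had 3 counts in sum in mutant CPT, against 38, 64 and 71 in mutant DMSO. Their ratios were 0.0873 (interval 0.0172 to 0.275), 0.0518 (0.0104 to 0.158) and 0.0467 (0.0094 to 0.142). Single reads decide the exact folds here. Without CPT library 1, which held the only reads of grm8b and htr2cl1, their fitted log2 fold changes moved to -7.47 and -7.21, against -4.62 and -5.17 with it, and the values without it stand against 0 counts and are no bound.

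The largest shifts in read share came mostly from translation and muscle genes. Elongation factor eef1a1l1 gained 4399 CPM, with 21392, 22566 and 22636 CPM in mutant CPT, against 17484, 17943 and 17969 CPM in mutant DMSO. Its libraries did not overlap, but its call was narrow (log2 0.32 ± 0.13, edgeR adjusted p = 0.0424) and was lost when any 1 of the 6 mutant libraries was left out, with adjusted p from 0.0638 to 0.102. The ribosomal stalk gene rplp0 gained 4186 CPM and the mitochondrial ATP carrier slc25a5 gained 2008 CPM. Of the 10 largest gains, all but eef1a1l1 and slc25a5 were ribosomal protein genes. The muscle calcium pump atp2a1 fell by 4752 CPM, with 7506, 5149.9 and 6228 CPM in mutant CPT, against 13067, 10396 and 9676 CPM in mutant DMSO. The cardiac-type actin actc1b fell by 2555 CPM, the myosin heavy chain myhz1.1 fell by 2280.4 CPM, tpma fell by 1839 CPM and ckmb fell by 1761 CPM. The muscle actin acta1b fell by 1798 CPM. The cytoplasmic actin actb2, which is not a muscle gene, fell by 2024 CPM. RNA-binding genes were also among the 10 largest losses, where the cold-inducible cirbpb fell by 1781 CPM and khdrbs1a fell by 1399 CPM. The chromatin protein hmga1a fell by 1121 CPM (log2 -0.34 ± 0.12, edgeR adjusted p = 0.0163), a call lost without CPT library 2 or 3 (adjusted p = 0.0607 and 0.12).

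Zebrafish keep many gene pairs from an ancient genome duplication, and pairs whose symbols differ only in a last letter a or b were compared. Of 1125 pairs with both genes tested, 132 had both copies higher (11.7%), 265 both lower (23.6%) and 87 moved in opposite directions (7.73%). Of all tested genes taken singly, 28.5% rose and 31.7% fell, so some pairs would share a direction without being related. The shares that unrelated genes would give were not computed. In 465 pairs 1 copy was called, and in 176 neither. Among the 484 pairs with both copies called, 397 moved the same way, and Spearman's correlation of the log2 fold changes across pairs was 0.49, a description over pairs that share libraries. The symbols alone were used, and pairs with near-identical sequences may share reads.

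**Figure D4:**
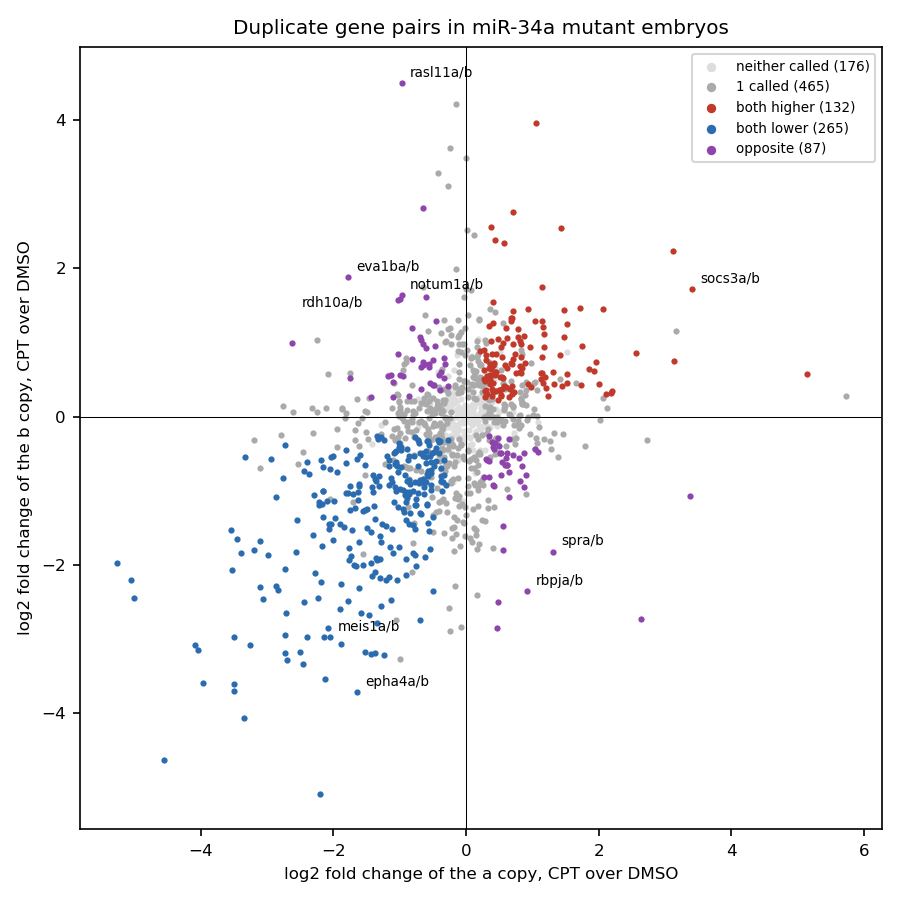
Log2 fold change, CPT over DMSO, of the a copy (horizontal) and the b copy (vertical) of 1125 gene pairs, coloured by whether both, 1 or neither copy was called. Most pairs with both copies called lie in the lower left (265) or upper right (132), and 87 pairs lie in the other corners.

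Opposite pairs included regulators. The Notch effector rbpja rose by 0.93 while rbpjb fell by 2.35, and the groups of neither gene overlapped. Reads of rbpja amounted to 110.5, 93.6 and 108 CPM in mutant CPT, against 60.8, 52.7 and 50.9 CPM in mutant DMSO. Reads of rbpjb amounted to 3.32, 2.19 and 2.94 CPM in mutant CPT, against 16.9, 15.3 and 11.5 CPM in mutant DMSO. Of the small GTPases, rasl11b had 127, 139 and 142 CPM in the mutant CPT libraries, against 7.23, 4.99 and 5.93 CPM in the mutant DMSO libraries. It was 22.6-fold higher (edgeR adjusted p = 1.34e-13), and rasl11a fell by 0.97. The Wnt-inactivating enzyme notum1a fell by 0.97 and notum1b rose by 1.64. The retinol dehydrogenases, which make retinoic acid precursors, split in the same way, rdh10a at -1.03 and rdh10b at 1.57. The pteridine enzyme spra rose by 1.32 and sprb fell by 1.82. Both copies of the Wnt repressor tcf7l1 fell, tcf7l1a by 2.28 and tcf7l1b by 2.11, as did the ephrin receptors epha4a and epha4b with log2 fold changes of -1.64 and -3.71, and the kinases rock2a and rock2b by 1.56 and 2.00. Pairs that rose together, picked after their values were seen, included the anti-proliferative tob1a and tob1b, by 1.42 and 0.83, and the angiomotin-like amotl2a and amotl2b, by 0.94 and 1.45.

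Few genes passed the test for a response of the mutants that differed from that of wild type, and their number varied widely between settings. The interaction test, which compares the 2 log2 fold changes, called 19 of 11866 genes (0.16%), 3 with a higher value in mutants (0.0253%) and 16 with a lower one (0.135%), while 1797 genes had an unadjusted p under 0.05. DESeq2 called 333 genes. Composition set the 3 wild-type CPT libraries apart from the rest, with TMM factors of 0.835 to 0.962 against 1.01 to 1.09 in the other 9 libraries and 10.7% to 12.3% of counts in their 10 largest genes against 8.79% to 9.58%, and their part in the result was not tested. When plain library totals replaced TMM 7 genes were called, 4 of them among the 19, and leaving out 1 library gave from 0 to 504 genes. The count was 0 without wild-type DMSO 2, wild-type CPT 2, mutant DMSO 2 or any 1 mutant CPT library, and 504 without wild-type CPT 3. All 19 differences kept their sign in every setting. The 19 genes were picked by small p in these same libraries, so a kept sign says little about how stable they are.

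Most of the 19 genes rose less, or fell, in mutants where wild type rose. Muscle actin actc1a had 481, 470.1 and 507 CPM in the mutant CPT libraries, against 713, 664 and 559 CPM in the mutant DMSO libraries. It fell in mutants by 0.41 and its log2 fold change was 0.56 in wild type, a difference of -0.97 ± 0.16 (edgeR adjusted p = 0.0195). The replicative helicase subunit mcm7 had 678, 620.4 and 628 CPM in mutant CPT, against 958, 1136 and 1019 CPM in mutant DMSO. It fell by 0.69 in mutants, beside a value of 0.22 in wild type, a difference of -0.91 ± 0.17 (edgeR adjusted p = 0.0294). The heme enzyme alas1 rose by 0.59 in mutants and 1.41 in wild type, and the nucleolar helicase ddx54 by 0.48 and 1.32. The forebrain and eye gene otx2a fell by 0.61 in mutants, beside a log2 fold change of 0.33 in wild type. The epithelial cadherin cdh1 was at -0.12 in mutants (edgeR adjusted p = 0.259) and fell in wild type, at -0.86. The potassium channel kcnk6 was at 0.26 in mutants and -0.71 in wild type. Its rise in mutants lay at the threshold (edgeR adjusted p = 0.05) and was lost in 6 of the alternative settings.

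**Figure D5:**
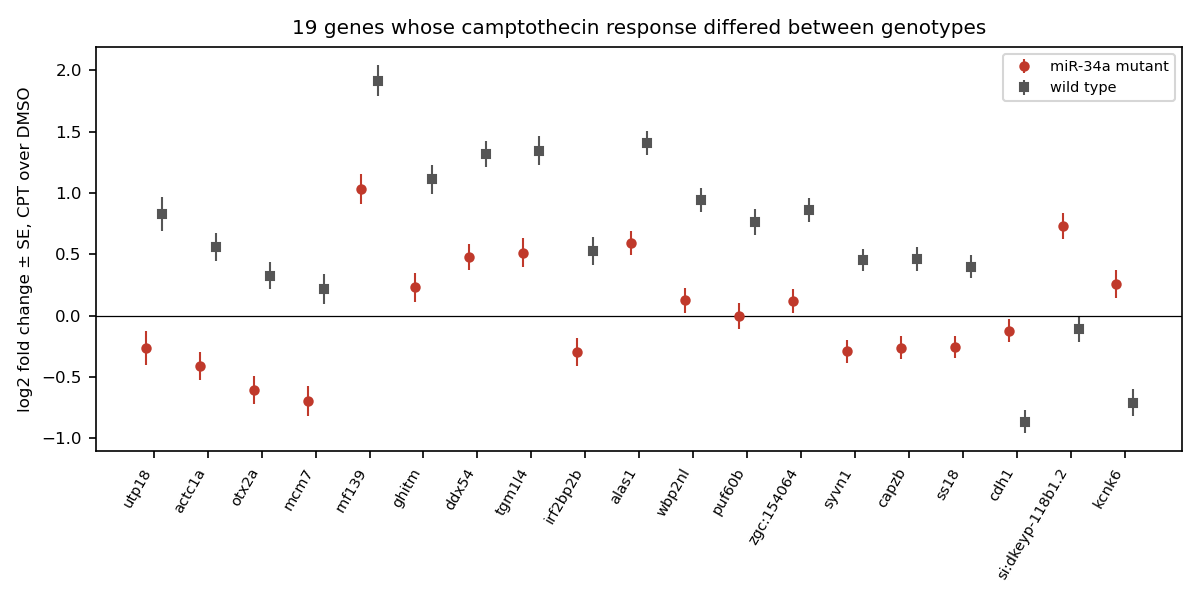
Log2 fold change of CPT over DMSO with its standard error in miR-34a mutants (red circles) and wild type (grey squares) for the 19 genes called in the interaction test, ordered by the difference. In 16 genes the mutant value lies below the wild-type value and in 3 (cdh1, si:dkeyp-118b1.2 and kcnk6) above it.

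The damage genes with the largest responses were not among the 19. The interaction was 0.54 ± 0.18 for bbc3, -0.12 ± 0.20 for cdkn1a and 0.69 ± 0.19 for casp8 on the log2 scale, with edgeR adjusted p = 0.149, 0.822 and 0.0945. A p that misses the threshold does not show that the responses were equal.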

How the data were processed

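Counts per gene were deposited as 1 table of 15265 gene symbols for 12 libraries, and the columns were matched to samples by name. The submitters' processing notes name danRer11 as the genome build and list HTSeq 0.9.1 for counting, STAR 2.7 and Bowtie2 as aligners, Trim Galore 0.4.4 and Picard 2.5.0. Which gene annotation was used, whether strand counted and how reads with several matches were treated are not stated there, so near-identical, overlapping and antisense genes are uncertain.

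In R 4.3.3, edgeR 4.0.16 was run on these counts. filterByExpr chose the genes, libraries were scaled by TMM, and the robust quasi-likelihood model had 4 group means over all 12 libraries. CPM values are TMM-scaled. P-values were adjusted by Benjamini-Hochberg and called under 0.05. Standard errors were taken as the size of the log2 fold change divided by the root of F. Groups were compared as CPT against DMSO in mutants, and as the difference of that change from wild type. DESeq2 1.42.0 and limma 3.58.1 were alternatives, beside other scalings, filters, thinning to equal depth, a replicate block and leaving out each library. Ratios of few counts have exact binomial intervals.

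The 37 gene lists hold 2064 entries, of which 34 were matched by synonym and 244 were not found in the table. The members and lists were chosen with earlier results of these data known, and members were named per list by smallest p (6 called) and highest CPM (3 not called). Genes were also named by smallest p in the table, largest fold, largest CPM difference, near absence in a group, interaction p and duplicate pairs. Some genes of the lists are not reported here by name. The steps were tested on simulated data in which few genes changed, all well counted, with rises and falls balanced. That setting differs from these data, so it does not test the scaling where most genes change. Depth was 13.5 to 27.9 M counts per library, and intervals cover counting error only, while the shares taken by gene lists carry the SD over 3 libraries.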

Additional observations from a re-analysis of the deposited data

Results flagged for a closer look

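In 19 genes the change after CPT differed between miR-34a mutants and wild type in edgeR's interaction test at an adjusted p of 0.0195 to 0.0406. The values below are the mutant minus the wild-type log2 fold change.

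The difference was positive in kcnk6 (0.97), si:dkeyp-118b1.2 (0.84) and cdh1 (0.74). It was negative in utp18 (-1.10), a small-subunit processome gene, actc1a (-0.97), otx2a (-0.93), mcm7 (-0.91), ghitm (-0.88), rnf139 (-0.88), ddx54 (-0.84), tgm1l4 (-0.83), irf2bp2b (-0.82), alas1 (-0.82) and wbp2nl (-0.82). It was also negative in puf60b (-0.76), zgc:154064 (-0.75), syvn1 (-0.75), capzb (-0.72) and ss18 (-0.66).

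Within mutants alone, CPT did not pass the test for utp18, ghitm, wbp2nl, puf60b, zgc:154064 and cdh1. The wild-type CPT libraries had the lowest TMM factors of the study, and their part in the 19 differences was not tested. The mutant calls of kcnk6, syvn1, capzb and irf2bp2b were lost in some settings, for syvn1 without mutant CPT library 3 (adjusted p = 0.0856).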

How the results depend on the processing

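The count of genes called after CPT in mutants was 7146 and ran from 6896 (library totals as scaling) to 7308 (mutant libraries alone with a replicate block) over the other tools, scalings, filters and depths. No gene called both here and in an alternative had the opposite sign there. A 2-fold limit left 2861 genes, 906 higher and 1955 lower. Without 1 of the 6 mutant libraries the count was 6490 to 6770 genes, with 3010 to 3251 higher and 3348 to 3628 lower. Without 1 of these libraries, 88.6% (mutant CPT 2) to 91.1% (mutant DMSO 3) of the 7146 calls were kept. Of 425 named genes followed, 6 lost a call in some setting, 36 without a call gained one in some setting and none changed direction. The called ones were named mainly for small p or large change in these same libraries, so their few losses say little about calls in general. The share of higher calls was 47.3%, with extremes of 42.5% under library totals and 51.5% under upper-quartile scaling.

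The 19 genes of the interaction became 333 in DESeq2, 7 with library totals and 35 with all genes that had a count. Without 1 of the 12 libraries the count was 0 to 504, and the cause was not tested. Unadjusted p-values under 0.05 numbered 1309 to 2393 in those fits.

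Replicate numbers were not treated as pairs in the main fit. Same-numbered CPT and DMSO libraries had correlations of deviations of 0.148, 0.0022 and -0.0719, of which only the first was above the limit of 0.1. Deviations within a group depend on each other and clutches are not labelled, so these values cannot show whether samples were paired. CPT library 2 was closest to DMSO library 3 (0.187). With the replicate block 7187 genes were called for CPT and 25 for the interaction, and among named genes the call of eef1a1l1 was lost (adjusted p = 0.0569).

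Genes with few counts had folds set by single reads. The limma-voom fit gave a log2 fold change of -4.44 for htr2cl1 and -4.35 for nrg2b, against -5.17 and -5.08.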
